A study of Canis lupus familiaris with 18 samples.

Results

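Fibroblast growth factors (FGFs) are secreted signals that act through receptor tyrosine kinases, the FGF receptors, with heparan sulfate on the cell surface as a cofactor. Ligand binding pairs receptors, which recruit the adaptor FRS2 and switch on the RAS and MAP kinase pathway, and Sprouty proteins and dual-specificity phosphatases then damp the signal. In fat, FGF1 and FGF10 are known from mice as factors of adipose remodelling and adipocyte formation, and endocrine FGF21 acts on adipocytes through FGFR1 and its co-receptor KLB.

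The genes described here are 6 FGF ligands, FGF1, FGF2, FGF7, FGF9, FGF10 and FGF18, and the 4 receptors FGFR1, FGFR2, FGFR3 and FGFR4. Every probe set (a group of short probes for 1 transcript) whose only annotated symbol is one of these 10 was taken, which gave 13 of the 42924 probe sets that are not array controls, or 10 of 15115 genes with a symbol. The set was chosen from the depot difference of FGF9 in control dogs, so that comparison is given below as a description of all members, with no test. The other members were taken as its family. Of the 13 probe sets, 7 reached log2 4 in at least 4 of the 18 arrays and were tested among 21484 probe sets. Log2 4 is called the floor here.

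The arrays hold RNA from gonadal and subcutaneous fat of 9 intact female Beagles, all 4 years old and all given the same commercial food. Of these, 5 had been randomised to ad libitum feeding and were obese, and 4 controls were fed to hold their baseline body weight and were lean. Fat was taken at week 24 after an overnight fast. The 4 groups are gonadal fat of ad libitum dogs (n = 5), subcutaneous fat of ad libitum dogs (n = 5), gonadal fat of control dogs (n = 4) and subcutaneous fat of control dogs (n = 4), and each dog gave both depots. Expression was read with Affymetrix canine arrays as a GCRMA signal, taken here as log2, and signals of different probe sets are not on a common scale. A ± value after a difference is a standard error from limma, and after a mean it is an SD. The p-values measure the spread between these dogs within the groups. The main fit does not pair the depots of a dog, and fits with the dog as a block are given as alternatives.

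The adipose label held in each array: all 15 adipocyte markers on the array, such as ADIPOQ and PLIN1, lay at or above the floor in all 18 arrays. Transcripts of other tissue stood out in 4 arrays, taken as a median marker signal of a list more than 2 log2 units above the median array of the depot. Skeletal muscle markers were raised in the gonadal array of ad libitum dog 2 and the subcutaneous arrays of control dogs 3 and 4, and markers of ciliated epithelium in the gonadal array of ad libitum dog 6 and again the subcutaneous array of control dog 4. The subcutaneous array of ad libitum dog 7 stayed under this line, with 13 of 17 muscle markers at or above the floor and a muscle mean of 5.48, and was kept in the fits called without these 4. Those fits keep few arrays, only dogs 1 and 9 in subcutaneous fat of control dogs and dogs 5, 7 and 8 in gonadal fat of ad libitum dogs. The labels tie the subcutaneous arrays alone to an earlier deposit, so the depots cannot be told apart from a possible batch of arrays. RNA length was read from the actin probe sets, whose 3' signal exceeds the 5' signal by more where RNA is shorter. This gap averaged 3.31 ± 0.91 in gonadal fat and 3.49 ± 0.77 in subcutaneous fat of ad libitum dogs. In control dogs it averaged 2.91 ± 0.91 in gonadal fat and 4.75 ± 1.02 in subcutaneous fat.

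FGF9 was higher in gonadal than in subcutaneous fat. It encodes a secreted ligand with a role in gonad development in mice, where it is also made by the mesothelium of the embryonic lung. In ad libitum dogs 2, 5, 6, 7 and 8 the log2 signal of FGF9 was 4.58, 8.23, 6.56, 7.50 and 6.05 in gonadal fat, against 2.60, 2.76, 2.95, 2.82 and 2.75 in subcutaneous fat. Every gonadal array lay above the floor and every subcutaneous array below it, so the groups did not overlap, as was the case for 8.97% of all probe sets tested. The mean was 6.58 ± 1.40 in gonadal fat and 2.78 ± 0.13 in subcutaneous fat (SD, n = 5 each). FGF9 was at least 6-fold higher in gonadal fat, a bound with the subcutaneous arrays set at the floor. The log2 difference from the fit was 3.81 ± 0.55 (95% interval 2.64 to 4.98, limma, adjusted p = 0.000819), with 5 of 5 dogs higher in the gonadal depot. FGF9 passed the filter through its gonadal arrays, and the fit shares its spread with the control arrays in which FGF9 was noticed. The adjusted p is therefore not free of that choice. FGF9 was the only member past the threshold in ad libitum dogs, 1 of 7 tested, where 7.19% of all probe sets were called. In bulk fat, more cells that make FGF9 and more FGF9 RNA per cell cannot be told apart.

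In control dogs 1, 3, 4 and 9 the FGF9 signal was 6.25, 6.25, 8.39 and 6.36 in gonadal fat, against 2.89, 2.83, 4.09 and 2.76 in subcutaneous fat. Dog 4 had the highest value in both depots, and its subcutaneous array was the only subcutaneous one of the 9 at or above the floor. The groups did not overlap, which held for 13% of all probe sets. The means were 6.81 ± 1.05 in gonadal fat and 3.14 ± 0.63 in subcutaneous fat of control dogs (SD, n = 4 each). FGF9 was at least 6.91-fold higher in gonadal fat, with subcutaneous values under the floor set to it, and the difference per dog ran from 3.35 in dog 1 to 4.30 in dog 4. In this comparison 2.92% of all probe sets were called. Within each depot the FGF9 means of the feeding groups lay within their spread, and their order in gonadal fat turned without control dog 4 or ad libitum dog 2. Both gonadal means lay above both subcutaneous means.

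**Figure D1:**
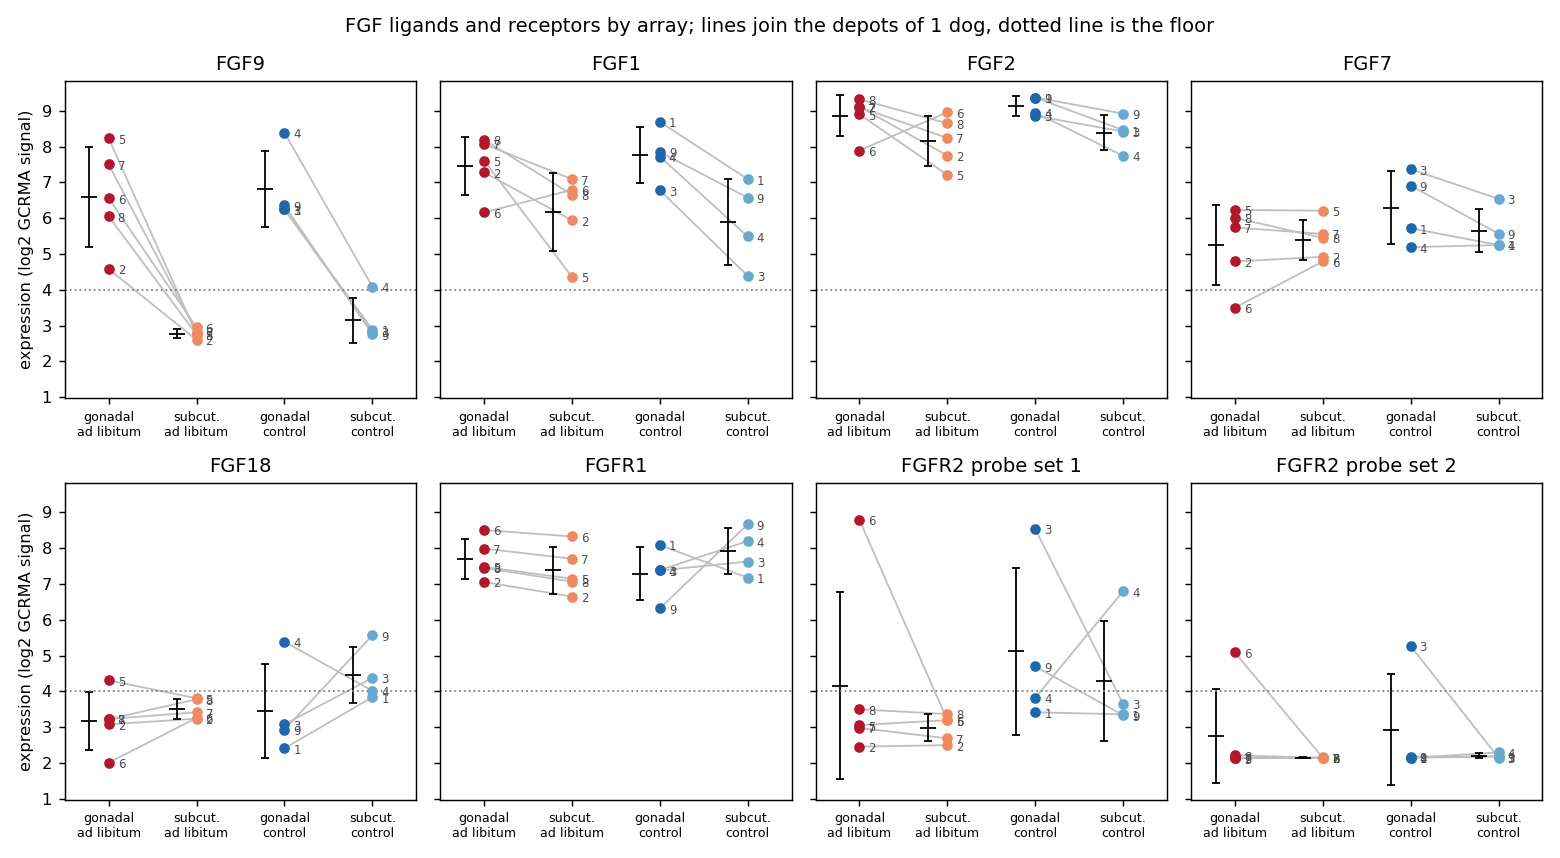
Log2 signal of 8 FGF family probe sets in each of the 18 arrays, by depot and feeding group. Points are arrays numbered by dog, grey lines join the depots of a dog, black bars are the group mean ± SD, and the dotted line is the floor of log2 4. FGF9 lies above the floor in all 9 gonadal arrays and in 1 of 9 subcutaneous arrays, and FGFR2 stands high in single arrays.

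Mesothelial transcripts moved with FGF9. Mesothelium is the cell layer that covers visceral fat, and 11 of its 16 listed markers were on the array. Their mean log2 signal was 5.68 to 7.23 in gonadal fat of ad libitum dogs, with 8 to 10 markers at or above the floor, and 3.92 to 4.18 in subcutaneous fat of these dogs, with 3 to 5. In control dogs it was 6.06 to 7.28 in gonadal fat and 4.04 to 6.46 in subcutaneous fat, where the highest value was that of dog 4. WT1, a transcription factor of mesothelium and gonads, had a signal of 7.54 in the subcutaneous array of dog 4 and of 2.88 to 3.10 in the other 8 subcutaneous arrays. The same array was the only subcutaneous one with FGF9 at or above the floor. It also had a skeletal muscle mean of 9.14 and a ciliated and oviduct mean of 5.54, so it stands apart in more than mesothelial markers. Not all mesothelial markers followed, since BNC1 reached the floor in only 3 arrays, all gonadal, and CALB2 was high in subcutaneous arrays, at up to 7.57. Other marker lists differed between depots too. The epithelium mean of ad libitum dogs was 3.88 to 6.77 in gonadal fat, highest in dog 6, and 3.31 to 3.63 in subcutaneous fat. Of its 11 markers, 3 to 10 lay at or above the floor in these gonadal arrays and 2 in these subcutaneous arrays. In control dogs the epithelium mean was 3.44 to 4.30 in gonadal fat and 3.20 to 5.43 in subcutaneous fat, highest in dog 4. The pericyte and smooth muscle mean of ad libitum dogs was 8.62 to 9.71 in gonadal and 7.47 to 8.18 in subcutaneous fat. The stromal progenitor mean was 9.93 to 10.80 in gonadal and 10.57 to 12.33 in subcutaneous fat, and the macrophage mean 6.5 to 7.71 in gonadal and 7.65 to 9.69 in subcutaneous fat. The part of mesothelium or of these other cells in the FGF9 difference was not tested.

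The 10 genes whose signal ran most like that of FGF9 over the 18 arrays were SLC1A1, UPK1B, PRR15, FGFBP1, TM4SF1, RSPO1, C3, PKHD1L1, MESD and ALX1, with Pearson r of 0.98 for the first and 0.90 for the last. UPK1B and PKHD1L1 are on the mesothelial list. SLC1A1, a glutamate transporter, had signals of 5.46, 7.70, 6.13, 6.46 and 5.59 in gonadal fat of ad libitum dogs 2, 5, 6, 7 and 8, and of 2.40 to 2.96 in their subcutaneous fat. Within the 9 gonadal arrays alone, r with FGF9 was 0.87 for SLC1A1 and for the complement gene C3, 0.86 for FGFBP1, which carries FGFs out of the matrix, and 0.13 for the homeobox gene ALX1. The 18 arrays share dogs and the depot split, and these values are a description.

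**Figure D2:**
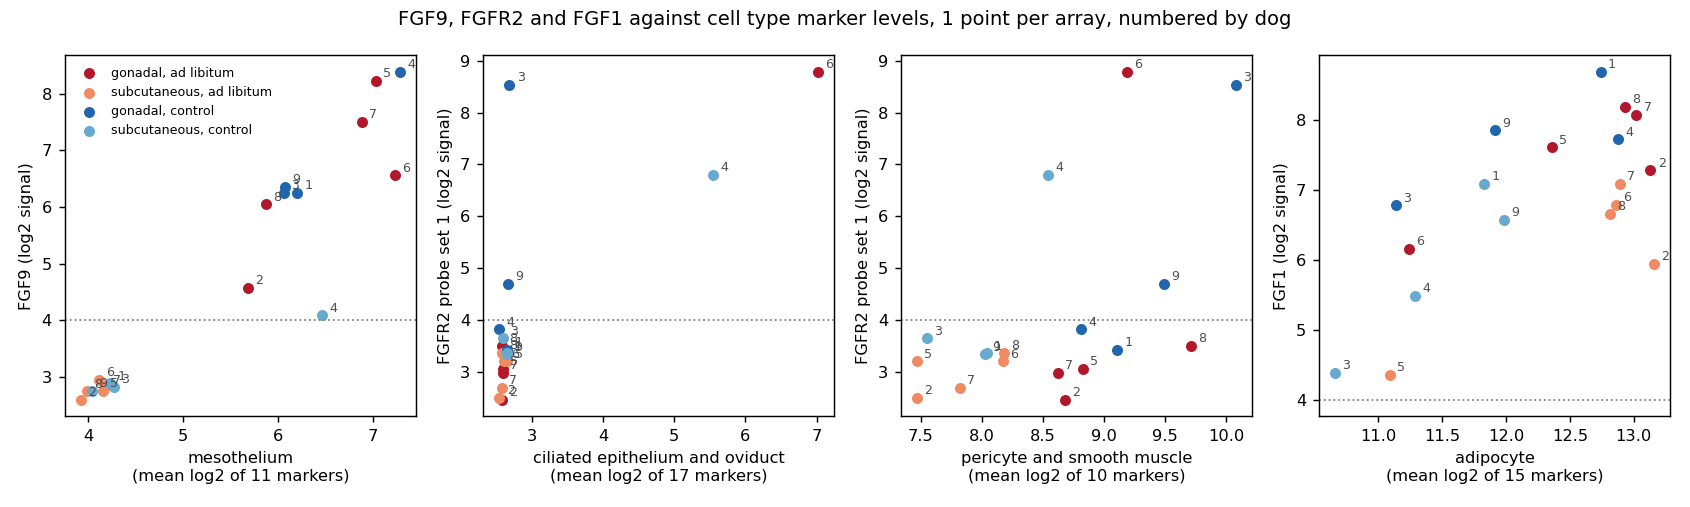
Log2 signal of FGF9, FGFR2 probe set 1 (shown in both middle panels) and FGF1 against the mean log2 signal of a marker list, with 1 point per array numbered by dog and the floor dotted. FGF9 is at the floor or above only in arrays with a mesothelial mean of 5.68 or more, FGFR2 stands high in 3 arrays that differ in their markers, and FGF1 is lowest in subcutaneous arrays of low adipocyte signal.

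FGF1, an acidic FGF that binds all FGF receptors and is induced in gonadal fat of mice by a high-fat diet, leaned to the gonadal depot without passing the threshold. In ad libitum dogs 2, 5, 6, 7 and 8 its signal was 7.28, 7.61, 6.16, 8.07 and 8.19 in gonadal fat, against 5.94, 4.36, 6.79, 7.09 and 6.66 in subcutaneous fat. The groups overlapped, and dog 6, whose gonadal array carries ciliated-cell transcripts, was the only one with the lower value in gonadal fat. The difference was 1.29 ± 0.58 (95% interval 0.07 to 2.52, adjusted p = 0.186). In control dogs 1, 3, 4 and 9 the signal was 8.69, 6.78, 7.72 and 7.85 in gonadal fat, against 7.09, 4.39, 5.49 and 6.57 in subcutaneous fat. All 4 control dogs were higher in gonadal fat, with a mean difference of 1.87. It was 0.93 without the 4 arrays that carry other tissue, where only dogs 1 and 9 remain in subcutaneous fat of control dogs.

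The lowest FGF1 signals, 4.36 in ad libitum dog 5 and 4.39 in control dog 3, came from the subcutaneous arrays with the lowest adipocyte marker means of their groups, 11.09 and 10.66. The lowest gonadal FGF1 signals, 6.16 in ad libitum dog 6 and 6.78 in control dog 3, likewise came from the gonadal arrays with the lowest adipocyte means, 11.24 and 11.14. Adipocyte means over all arrays ran up to 13.16. The part of adipocyte content in the FGF1 values was not tested.

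FGF2, the basic FGF, which is stored on heparan sulfate in the matrix and acts on endothelial and adipose progenitor cells, differed less in size. In ad libitum dogs 2, 5, 6, 7 and 8 its signal was 9.11, 8.90, 7.89, 9.10 and 9.32 in gonadal fat, against 7.75, 7.21, 8.96, 8.24 and 8.65 in subcutaneous fat. Dog 6 again went the other way, and the groups overlapped. The difference was 0.70 ± 0.33 (95% interval 0.01 to 1.39, adjusted p = 0.207), higher in gonadal fat in 4 of 5 dogs. Without dog 6 it was 1.15, with an adjusted p = 0.034 by limma, and FGF2 passed in this 1 of 21 other settings only. It did not pass without the 4 arrays that carry other tissue, which include the gonadal array of dog 6.

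In control dogs 1, 3, 4 and 9 the FGF2 signal was 9.37, 8.86, 8.95 and 9.37 in gonadal fat, against 8.46, 8.42, 7.74 and 8.92 in subcutaneous fat. The difference was positive in 4 of 4 dogs, with a mean of 0.76, and it was 0.30 with the actin gap in the fit. FGF1 and FGF2 ran together over the 18 arrays (Pearson r = 0.82), with r = 0.86 within the 9 gonadal and 0.62 within the 9 subcutaneous arrays, which are given as a description of arrays that share dogs. At an unadjusted p under 0.05, FGF1, FGF2 and FGF9 were the 3 of 7 members past the line in ad libitum dogs, against 23.5% of all probe sets.

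FGF7, the keratinocyte growth factor that stromal cells send to epithelium through the epithelial splice form of FGFR2, showed no depot difference beyond its spread. In ad libitum dogs 2, 5, 6, 7 and 8 its signal was 4.79, 6.23, 3.50, 5.74 and 6.01 in gonadal fat, against 4.92, 6.21, 4.79, 5.56 and 5.45 in subcutaneous fat. The gonadal array of dog 6 was the only one of the 18 below the floor. The difference was -0.13 ± 0.51 (95% interval -1.21 to 0.95, adjusted p = 0.91). In control dogs 1, 3, 4 and 9 the signal was 5.72, 7.37, 5.19 and 6.91 in gonadal fat, against 5.25, 6.54, 5.25 and 5.57 in subcutaneous fat, a mean difference of 0.65 with 3 of 4 dogs positive.

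FGF18, a ligand known for its role in cartilage and lung, lay near or under the floor. It reached the floor in 5 of 18 arrays, the gonadal ones of ad libitum dog 5 (4.31) and control dog 4 (5.39) and the subcutaneous ones of control dogs 3, 4 and 9 (4.38, 4.02 and 5.57). Its depot difference was -0.33 ± 0.50 in ad libitum dogs (adjusted p = 0.734), and its mean difference in control dogs was -1.0, or -0.15 with all values under the floor set to it. FGF10, which drives fat formation in mouse embryos, had a signal of 2.15 to 2.24 and lay below the floor in all 18 arrays.

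FGFR1, the main FGF receptor of adipocytes and their progenitors, was measured in every array. In ad libitum dogs 2, 5, 6, 7 and 8 its signal was 7.06, 7.48, 8.51, 7.99 and 7.45 in gonadal fat, against 6.65, 7.15, 8.33, 7.71 and 7.07 in subcutaneous fat. Each dog was slightly higher in gonadal fat, by 0.18 in dog 6 to 0.40 in dog 2. The main fit does not pair the depots, so its standard error holds the spread between dogs. The difference was 0.31 ± 0.38 (95% interval -0.50 to 1.12, adjusted p = 0.669). By limma the adjusted p was 0.607 or more in all 21 other settings, with the dog as a block included. Those block fits share their spread with the control dogs, whose steps ran from -2.35 in dog 9 to 0.91 in dog 1. In control dogs 1, 3, 4 and 9 the signal was 8.09, 7.38, 7.39 and 6.32 in gonadal fat, against 7.18, 7.63, 8.20 and 8.67 in subcutaneous fat. Here only dog 1 was higher in gonadal fat, the mean difference was -0.62, and it ran from -1.13 to -0.05 as single dogs were left out.

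FGFR2 lay below the floor in most arrays and was high in a few. Of its 3 probe sets, only probe set 1 was tested, and it reached the floor in 4 of 18 arrays, with 8.79 in gonadal fat of ad libitum dog 6, 8.54 and 4.70 in gonadal fat of control dogs 3 and 9, and 6.80 in subcutaneous fat of control dog 4. The other 14 arrays lay between 2.46 and 3.82. The second probe set reached the floor in the first 2 of these arrays alone, at 5.09 in dog 6 and 5.27 in dog 3, and stood at 2.30 in dog 4. The third stayed at 2.07 to 2.13 in all arrays. The depot difference of probe set 1 was 1.17 ± 1.13 in ad libitum dogs (95% interval -1.23 to 3.56, adjusted p = 0.574), and 0.06 without dog 6. In control dogs it was 0.83, or -0.52 without dog 3.

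The arrays with high FGFR2 also carried other transcripts. Ciliated and oviduct markers averaged 7.02 in gonadal fat of ad libitum dog 6 and 5.54 in subcutaneous fat of control dog 4, with 12 and 11 of 17 markers at or above the floor, and 2.53 to 2.68 in the other 16 arrays. FOXJ1, the defining regulator of motile cilia, had a flat signal of 1.69 to 1.73 in all 18 arrays. The gonadal array of control dog 3 had the highest pericyte and smooth muscle mean, 10.08, and no ciliated signal. The gene most like FGFR2 over 18 arrays was PGR, the progesterone receptor (r = 0.94), with 9.71 in gonadal fat of ad libitum dog 6, 8.60 in gonadal fat of control dog 3 and 7.90 in subcutaneous fat of control dog 4, against a lowest signal of 2.68. The next were SH3BGRL2 and OSBPL5 (both r = 0.93) and TSPAN15 and HSPA2 (both r = 0.92), and 3 arrays carry these values. The part of other tissue in the FGFR2 values was not tested.

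FGFR3 and FGFR4 were not seen above the floor. The FGFR3 signal was 2.10 to 2.23 over the 18 arrays, and the FGFR4 probe sets had 2.55 to 2.64 and 1.90 to 2.07. A signal below the floor in these arrays does not show that the transcript is absent.

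Ad libitum feeding was set against weight maintenance in each depot (5 dogs against 4). By limma, 0 of 7 member probe sets passed in subcutaneous fat, where 2.36% of all probe sets were called, and 0 of 7 had an unadjusted p under 0.05, against 23.7% of all. In gonadal fat 0 of 7 members passed and 0 of 7 had an unadjusted p under 0.05, where 0% of all probe sets were called and 2.47% had an unadjusted p under 0.05. The member counts include FGF9 as a description, since it was noticed in the control arrays used here. The median difference of the 7 members was -0.37 in subcutaneous and -0.28 in gonadal fat, against 0 in both for the 8656 genes tested. The subcutaneous median is the value of FGF9. Its signal there lay below the floor in all 5 ad libitum arrays and all but 1 of the 4 control arrays. With values set to the floor the FGF9 difference was -0.02, and nothing is read from these medians.

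FGF9 differed with feeding by -0.37 ± 0.59 in subcutaneous fat (adjusted p = 0.733), where 8 of 9 arrays lay below the floor, and the value was -0.05 without control dog 4 and -0.02 with values set to the floor. It differed by -0.23 ± 0.59 in gonadal fat (adjusted p = 0.99994, as for all 7 members there), or by 0.30 without control dog 4 and 0.27 without ad libitum dog 2. Its 95% interval in gonadal fat was -1.47 to 1.01, and the width of these intervals limits what 9 dogs can show. Both feeding comparisons use the control arrays in which FGF9 was noticed. Its p-values here are therefore not free of that choice and are given as a description. FGF1 differed by 0.28 ± 0.61 in subcutaneous fat (adjusted p = 0.81) and -0.30 ± 0.61 in gonadal fat, and FGF2 by -0.22 ± 0.35 in subcutaneous fat (adjusted p = 0.728) and -0.28 ± 0.35 in gonadal fat. FGFR1 differed by -0.54 ± 0.41 in subcutaneous fat (adjusted p = 0.432) and 0.40 ± 0.41 in gonadal fat.

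FGF7 and FGF18 had the smallest unadjusted p-values for feeding. FGF7 in gonadal fat had a mean of 5.25 ± 1.12 in ad libitum dogs and 6.30 ± 1.01 in control dogs, a difference of -1.04 ± 0.54 (95% interval -2.19 to 0.10), and the groups overlapped. It ran from -1.41 to -0.61 as single dogs were left out, was -0.30 without the 4 arrays that carry other tissue and turned to 0.05 without gonadal dog 3 as well. FGF18 in subcutaneous fat had signals of 3.24, 3.81, 3.26, 3.42 and 3.78 in ad libitum dogs 2, 5, 6, 7 and 8, against 3.84, 4.38, 4.02 and 5.57 in control dogs 1, 3, 4 and 9. These groups did not overlap, which held for 10.1% of all probe sets in this comparison. All 5 ad libitum arrays and 1 control array lay below the floor, and the nearest values of the groups, 3.81 and 3.84, were both under it. The difference was -0.95 ± 0.53 (95% interval -2.07 to 0.17, adjusted p = 0.282), or -0.49 with values set to the floor and -0.58 without control dog 9. In gonadal fat 0.768% of all probe sets had feeding groups that did not overlap, and no member did.

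**Figure D3:**
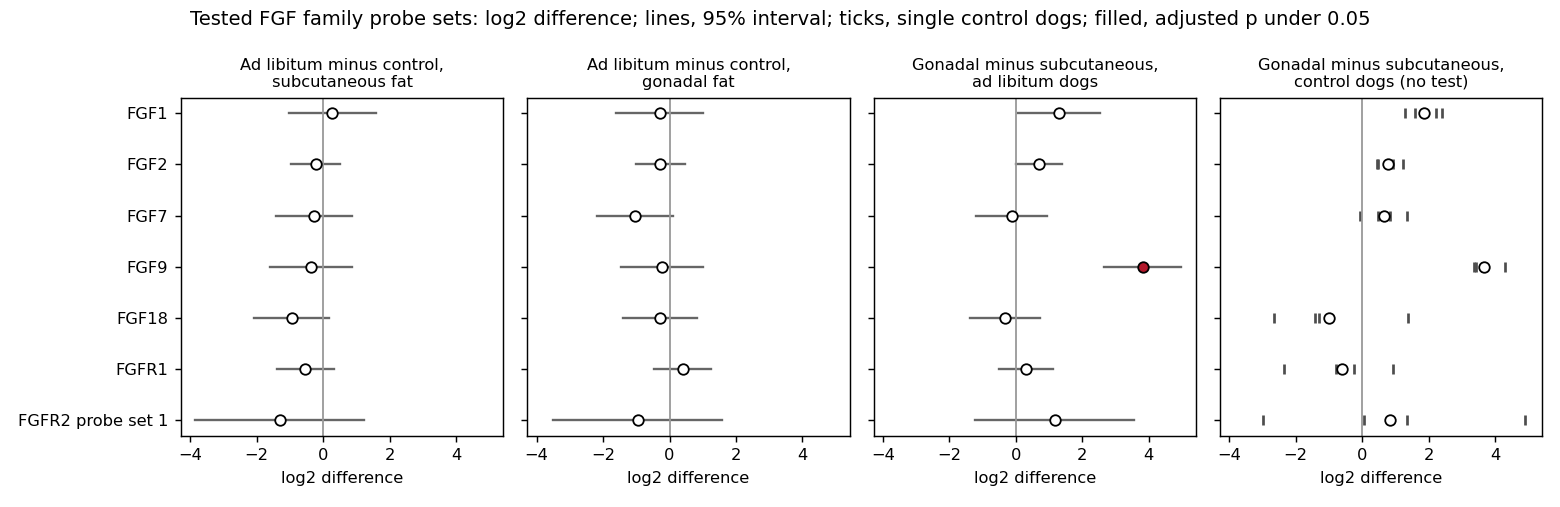
Log2 difference of the 7 tested FGF family probe sets in 4 comparisons. Circles are the differences, filled where the adjusted p is under 0.05, lines are 95% intervals, and the control dog panel shows single dogs as ticks with no test. FGF9 at 3.81 in ad libitum dogs is the filled circle, and all feeding intervals include 0.

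The depot difference was then compared between feeding groups, as the gonadal minus the subcutaneous feeding response. It contains the depot difference of control dogs from which FGF9 was chosen, so for FGF9 it is a description with no test. For FGF9 it was 0.14 ± 0.83. For FGF1 it was -0.58 ± 0.87 (adjusted p = 0.874) and for FGFR1 0.94 ± 0.58 (95% interval -0.28 to 2.15, adjusted p = 0.748). By limma 0 of 7 members passed, with 0 of 7 at an unadjusted p under 0.05. These counts include FGF9 as a description. Of all probe sets 0% were called, with 6.26% at an unadjusted p under 0.05.

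The rest of the FGF pathway was read from 5 lists with 90 genes, of which 78 were on the array and 47 were tested. Between depots in ad libitum dogs 5 of the 47 were higher in gonadal fat, 1 was lower and 41 did not pass, where 2.7% of 8656 genes were called higher and 4.75% lower. Those 5 include FGFBP1, which passed the filter through gonadal arrays alone. At an unadjusted p under 0.05 there were 16 of 47, against 23.5% of all probe sets. In control dogs 0 were higher and 1 was lower, where 1.14% of genes were called higher and 1.8% lower, and 13 of 47 had an unadjusted p under 0.05, against 20.4% of all probe sets. The depot comparisons use different dogs, while each shares its arrays with the feeding comparisons. With feeding 1 gene was higher in subcutaneous fat and 0 lower, where 1.96% and 0.347% of genes were called, and 12 of 47 had an unadjusted p under 0.05, against 23.7% of all probe sets. In gonadal fat 0 of 47 passed by limma, with 1 at an unadjusted p under 0.05, against 2.47% of all probe sets. For the difference between depots in feeding response 0 of 47 passed by limma, with 7 at an unadjusted p under 0.05, against 6.26% of all probe sets. These shares count all probe sets and the 47 count 1 probe set per gene, and nothing is read from the gap.

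Among the other FGF ligands, 2 of 16 were tested. FGF14, an FGF homologous factor that stays inside the cell and binds sodium channels, was higher in gonadal fat of ad libitum dogs by 1.23 ± 0.30 (adjusted p = 0.0205), in 4 of 5 dogs. Its mean was 4.94 ± 0.68 in gonadal and 3.71 ± 0.35 in subcutaneous fat, where all 5 arrays lay below the floor, as did the gonadal array of dog 2. With values set to the floor the difference was 0.94 (adjusted p = 0.0444), and the adjusted p was 0.0539 to 0.0918 without dog 5, 6, 7 or 8. In control dogs 1, 3, 4 and 9 FGF14 had 3.97, 3.97, 4.55 and 4.93 in gonadal fat. Its subcutaneous values there were 4.00, 3.97, 4.66 and 3.96, so the groups overlapped, and FGF14 did not pass. FGF13, of the same subfamily, differed by -0.27 ± 0.36 in ad libitum dogs (adjusted p = 0.703). The other 14 ligands were untested, 13 of them below the floor in all arrays, the endocrine ligands FGF19, FGF21 and FGF23 included, and FGF12 reached the floor in 2 arrays.

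Of 21 co-receptors and binding proteins 12 were tested, and in ad libitum dogs 2 were higher in gonadal fat, 1 was lower and 9 did not pass (median difference 0.06, against -0.02 for all genes). Of all genes 2.7% were called higher and 4.75% lower in this comparison. FGFBP1, which releases FGFs from heparan sulfate, had signals of 3.79, 8.43, 5.47, 5.59 and 4.67 in gonadal fat of dogs 2, 5, 6, 7 and 8, against 2.68 to 2.83 in subcutaneous fat. Every gonadal array lay above every subcutaneous one, where 8.97% of all probe sets had depot groups that did not overlap. The gonadal array of dog 2 and all subcutaneous arrays were below the floor. FGFBP1 passed the filter through gonadal arrays alone, so its adjusted p-values are not free of that filter. The fitted difference was 2.87 ± 0.65 (limma, adjusted p = 0.0147), and its size rests on values under the floor. With these set to the floor it was 1.63 (adjusted p = 0.123), and without dog 7 the adjusted p was 0.063, so the call holds in part of the settings only. In control dogs FGFBP1 differed by 2.48 ± 0.72 (adjusted p = 0.0716).

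SDC4, a cell-surface heparan sulfate proteoglycan, was higher in gonadal fat of ad libitum dogs by 1.31 ± 0.33 (adjusted p = 0.0236, 5 of 5 dogs), and the adjusted p rose to 0.0803, 0.123 and 0.0654 without dog 6, 7 or 8 and to 0.0649 without the 4 arrays that carry other tissue. In control dogs 1, 3, 4 and 9 SDC4 had 10.20, 9.10, 9.77 and 9.38 in gonadal fat. Its subcutaneous values there were 9.74, 9.54, 9.48 and 9.23, so the groups overlapped, dog 3 was lower in gonadal fat, and SDC4 did not pass. HSPG2, the basement membrane proteoglycan perlecan, which binds FGF2, was lower in gonadal fat of ad libitum dogs. Its signal was 11.23, 10.79, 10.69, 10.80 and 11.38 in gonadal fat, against 11.67, 11.85, 12.07, 11.53 and 11.89 in subcutaneous fat of dogs 2, 5, 6, 7 and 8. The groups did not overlap, as for 8.97% of all probe sets, and the difference was -0.82 ± 0.17 (adjusted p = 0.00969). In control dogs HSPG2 was lower in gonadal fat in 4 of 4 dogs, by -0.46 ± 0.19 (adjusted p = 0.189).

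Of 13 genes that make or edit heparan sulfate 9 were tested, with 0 called by limma in ad libitum dogs and 1 lower in control dogs. Of all genes 2.7% were called higher and 4.75% lower in ad libitum dogs, and 1.14% higher and 1.8% lower in control dogs. An unadjusted p under 0.05 was reached by 5 of 9 in ad libitum dogs, against 23.5% of all probe sets. EXT1, which extends the heparan sulfate chain, had 9.66, 9.63, 9.91 and 9.85 in gonadal fat of control dogs 1, 3, 4 and 9, against 11.81, 11.62, 11.09 and 10.90 in subcutaneous fat. The groups did not overlap, as for 13% of all probe sets, and the difference was -1.59 ± 0.26 (adjusted p = 0.00366). In ad libitum dogs it was -0.61 ± 0.23 (adjusted p = 0.112), and the test of the difference between feeding groups gave 0.98 ± 0.34 (adjusted p = 0.748). The sulfatases SULF1 and SULF2, which trim heparan sulfate, differed by 1.46 ± 0.43 (adjusted p = 0.051) and 1.52 ± 0.48 (adjusted p = 0.0671) in ad libitum dogs, with all 5 dogs higher in gonadal fat for both.

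Of 21 adaptors and signalling genes 15 were tested. GAB1, a docking protein downstream of FRS2, was higher in gonadal fat of ad libitum dogs, with 7.66, 8.36, 7.70, 8.13 and 7.97 in gonadal fat, against 6.95, 6.98, 7.35, 7.30 and 6.98 in subcutaneous fat of dogs 2, 5, 6, 7 and 8. The groups did not overlap, as for 8.97% of all probe sets. The difference was 0.85 ± 0.19 (adjusted p = 0.0142), with an adjusted p of 0.0718, 0.0552 and 0.0732 without dog 5, 7 or 8. CBL, a ubiquitin ligase that tags activated receptors for breakdown, was higher with ad libitum feeding in subcutaneous fat, with 6.19, 4.14, 5.89, 5.00 and 4.97 in ad libitum dogs, against 4.72, 3.40, 2.62 and 3.36 in control dogs 1, 3, 4 and 9. The groups overlapped, and the difference was 1.71 ± 0.43 (adjusted p = 0.047). CBL lost the call in 15 of 19 other settings, among them the fit without the 4 arrays that carry other tissue (1.19, adjusted p = 0.289).

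Of 19 feedback inhibitors and targets 9 were tested, and 1 was higher in gonadal fat of ad libitum dogs, where 2.7% of all genes were called higher. SPRY1, a Sprouty inhibitor of FGF signalling, had 7.68, 8.39, 7.21, 8.30 and 8.68 in gonadal fat, against 6.84, 6.33, 7.30, 6.67 and 7.63 in subcutaneous fat of dogs 2, 5, 6, 7 and 8. Dog 6 alone was not higher in gonadal fat, and the difference was 1.10 ± 0.31 (adjusted p = 0.0433). With the dog as a block the adjusted p was 0.0676, and the call was lost in 11 of 21 other settings. In control dogs SPRY1 differed by 1.13 ± 0.35 (adjusted p = 0.0863), higher in gonadal fat in 4 of 4. Of the others, MYC differed by 1.20 ± 0.38 (adjusted p = 0.0693) and CCND1, a cell cycle gene, by -1.31 ± 0.46 (adjusted p = 0.0972) in ad libitum dogs.

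**Figure D4:**
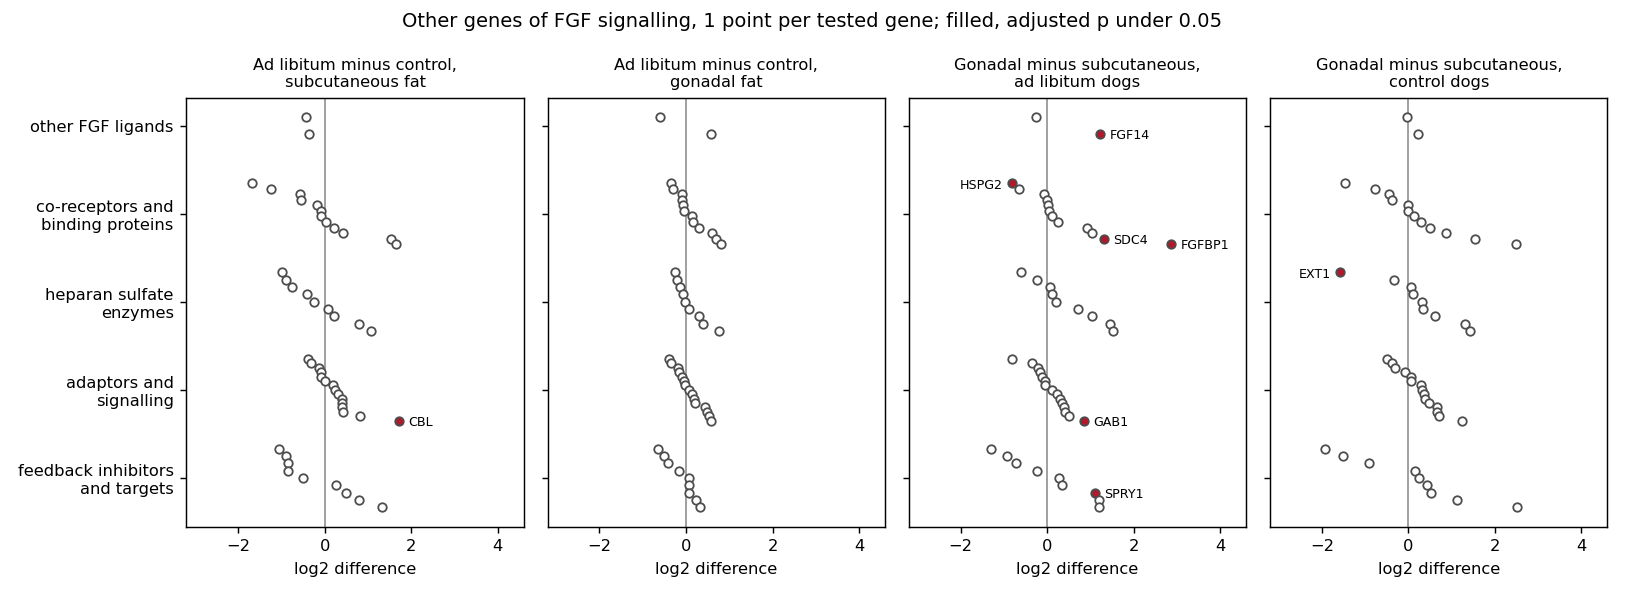
Log2 difference of the 47 tested genes of the FGF pathway lists in 4 comparisons, with 1 point per gene and filled points where the adjusted p is under 0.05. Filled and named are CBL for feeding in subcutaneous fat, 6 genes between depots in ad libitum dogs and EXT1 between depots in control dogs, and most genes lie between -2 and 2.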

How the data were processed

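Values are log2 expression, computed from the arrays by GCRMA per the submitters' processing notes and deposited as 1 table. The log base is read here as 2. Neither it nor the settings of GCRMA are given in the sources used here. Probe sets took their symbol from the platform annotation, and no sequences are shown.

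Probe sets at log2 4 or above in at least 4 of 18 arrays were tested. The R package limma (R 4.3.3, limma 3.58.1, statmod 1.5.0) fitted 4 depot-by-feeding means over all arrays with lmFit and eBayes, with 14 residual and 2.54 prior degrees of freedom. P-values are two-sided and were adjusted by Benjamini-Hochberg over 21484 probe sets, with a threshold of 0.05. For counts of genes, the probe set of highest mean stood for its gene (8656 genes). Plots were drawn with matplotlib 3.10.9. The fit was tested on simulated data. The number of arrays limits the precision.

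Named were all members, each pathway gene past the threshold, otherwise up to 3 per list with the smallest p, and the genes with the highest Pearson r to a member (10 for FGF9, 5 for others). FOXJ1, WT1, BNC1 and CALB2 were picked from the marker lists after their values were seen. The members and lists were chosen with earlier results of these data known.

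The animal number in the labels pairs the depots of a dog. Deviations of a dog's arrays from their group means correlated between depots at -0.05 to 0.53, and the consensus correlation was 0.168. The alternatives were no filter or one at log2 6, values set to the floor, quantile normalization, median centring, trended and robust moderation, a fit to the arrays of each comparison alone, dog as a fixed or random block, the actin gap between 3' and 5' probe sets in the fit, each dog left out, and the 4 arrays with other tissue left out. Leaving out the gonadal array of control dog 3 as well, and all alternatives for pathway genes, were added after seeing the data.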

Additional observations from a re-analysis of the deposited data

Results flagged for a closer look

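Of 27 groups of member values checked, 6 held an array that stood apart by Dixon's test, where chance gives about 1 in 20 groups. The 27 were only part of the member groups and share arrays, so nothing is read from that rate. For FGF9 the arrays that stood apart were those of control dog 4 in gonadal fat, at 8.39, and in subcutaneous fat, at 4.09. The mesothelial means of this dog, 7.28 in gonadal and 6.46 in subcutaneous fat, were the highest among the control arrays of each depot. Its subcutaneous array also carried skeletal muscle and ciliated-cell transcripts. For FGFR2 probe set 1 they were ad libitum dog 6 in gonadal fat, at 8.79, and control dog 4 in subcutaneous fat, at 6.80, the arrays with ciliated-cell transcripts. For FGFR2 probe set 2 they were ad libitum dog 6, at 5.09, and control dog 3, at 5.27, both in gonadal fat. The part of other tissue in these values was not tested.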

How the results depend on the processing

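The 35 member differences were recomputed under up to 21 settings each, 704 values in all. Of these, 660 kept their direction and their side of the threshold, 1 passed it newly and 43, all of differences that did not pass, changed sign. The values include the depot differences of control dogs and the FGF9 interaction. Both are descriptions with no test, and nothing is read from how well they held. FGF9 between depots in ad libitum dogs passed under all 21, at 2.58 (adjusted p = 0.00839, values set to the floor) to 4.48 (adjusted p = 0.000534, without the 4 arrays with other tissue), with adjusted p-values of 0.000224 to 0.00943. With the dog as a replicate block it stood at 3.81, with an adjusted p = 0.00149 (fixed) or 0.000224 (random). Of the results reported, the fixed block ended only the call of SPRY1. The count of members called in ad libitum dogs ran from 1 to 2 as single dogs were left out, with FGF2 added without dog 6.

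Signs changed as follows, with main values in the report and the cause not tested. With values set to the floor, FGF18 between depots in ad libitum dogs was 0.06 and the FGF9 interaction (feeding response of gonadal minus subcutaneous fat) -0.20. With the actin covariate, feeding in subcutaneous fat gave -0.10 for FGF1 and 0.36 for FGFR2, and the interaction 0.36 for FGF2 and -1.84 for FGFR2. Without the 4 arrays, feeding gave -0.66 for FGF1 in subcutaneous fat, and 0.20 for FGF1, 0.45 for FGF9 and 0.14 for FGF18 in gonadal fat. The depot difference in ad libitum dogs was then 0.61 for FGF7 and 0.09 for FGF18, and the interaction 0.86 for FGF1, 0.49 for FGF2 and -1.58 for FGFR2. Without gonadal dog 3 as well, FGF1 in subcutaneous fat and both depot values stood at -0.66, 0.61 and 0.09, feeding in gonadal fat gave 0.05 for FGF7, 0.26 for FGF9 and 0.01 for FGF18, and the interaction 0.54 for FGF1, 0.40 for FGF2, 0.07 for FGF7 and -0.44 for FGFR2.

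As single dogs were left out, feeding in subcutaneous fat ran from -0.22 to 0.73 for FGF1, -0.44 to 0.02 for FGF2 and -0.47 to 0.03 for FGF7. In gonadal fat it ran from -0.62 to 0.03 for FGF1, -0.64 to 0.30 for FGF9, -0.63 to 0.36 for FGF18 and -2.12 to 0.18 for FGFR2. The depot difference ran from -0.30 to 0.16 for FGF7 in ad libitum dogs and -0.52 to 2.10 for FGFR2 in control dogs. The interaction ran from -0.30 to 0.39 for FGF2, -0.28 to 0.60 for FGF9 and -0.93 to 1.69 for FGFR2.

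Counts over all probe sets moved more. The 506 called for feeding in subcutaneous fat became 1 with the actin covariate and 2703 without dog 5. The 1545 between depots in ad libitum dogs ran from 497 (without dog 8) to 2495 (random block), the 627 in control dogs from 143 (without dog 3) to 1346 (random block), and the 0 for the interaction reached 5 without dog 5. HSPG2 passed in all 21 settings, EXT1 in 20 of 21, GAB1 in 18 of 21, FGFBP1 in 18 of 20, FGF14 in 15 of 20, SDC4 in 14 of 21, SPRY1 in 10 of 21 and CBL in 4 of 19. FGFBP1 passed the main filter through gonadal arrays alone. SDC4 also missed with no filter (adjusted p = 0.0519), and with only its own arrays SDC4 (0.0726) and FGF14 (0.0549) both missed.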

Other observations

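Genes that ran most like the other members over the 18 arrays are given by Pearson r, with no test. For FGF1 they were the peroxisomal protease LONP2 and the vitamin E transfer protein TTPA (both 0.93), EMC3 and CTDSPL (both 0.92), and STAT5B (0.91). For FGF2 they were NOCT (0.89), TTPA (0.86), RRAS and EPAS1 (both 0.84), and VKORC1L1 (0.83), so TTPA stood on both lists. For FGFR1 they were PLCD3 and ZDHHC8 (both 0.84), PNP (0.81), and LOC490422 and RAB3D (both 0.80). For FGF7 they were TTLL7 (0.88), and ARHGAP5, ATRX, UBE2V2 and JMJD1C (each 0.86). For FGF18, which lay mostly under the floor, r reached only 0.76, with BMP7.

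KLB, the co-receptor that gives FGFR1 its response to FGF21, had signals of 8.09, 7.45, 3.75, 7.59 and 7.51 in gonadal fat of ad libitum dogs 2, 5, 6, 7 and 8, and of 7.93, 4.76, 7.07, 7.15 and 7.38 in their subcutaneous fat. In control dogs 1, 3, 4 and 9 it had 7.23, 4.78, 7.81 and 7.16 in gonadal fat and 5.20, 4.65, 4.85 and 6.15 in subcutaneous fat. The low KLB values of ad libitum dogs 5 and 6 and control dog 3 fell in arrays whose FGF1 signal was also the lowest of its group, while the subcutaneous arrays of control dogs 4 and 1 had low KLB with FGF1 at 5.49 and at 7.09, the highest of that group. KLB passed in no comparison by limma (subcutaneous feeding 1.65 ± 0.83, adjusted p = 0.238), and FGFRL1, the receptor-like decoy without a kinase, differed there by 1.52 ± 0.68 (adjusted p = 0.188).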
